A study of Saccharomyces cerevisiae and Kluyveromyces marxianus with 18 samples.

Results

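Steady-state aerobic transcript levels were compared between a pair of budding yeasts, Kluyveromyces marxianus and Saccharomyces cerevisiae, gene by gene. Genes were paired 1 to 1 where a single entry of the S. cerevisiae reference strain S288C named exactly 1 gene in each species' deposited comparison table. The rule gave 3885 pairs, out of 5330 K. marxianus and 6171 S. cerevisiae genes in the count tables. It used annotation alone and no measured difference between the species. Symbols and roles below are those of the S. cerevisiae gene of a pair.

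The study grew both yeasts in chemostats, in which medium is fed at a fixed rate so that growth rate is set by the feed, and varied oxygen, Tween 80 and ergosterol over 18 poly(A)-selected RNA-seq libraries in 9 groups of 2. The compared groups are 2 libraries of wild-type K. marxianus CBS6556, a thermotolerant yeast, and 2 libraries of wild-type S. cerevisiae CEN.PK113-7D, a widely used laboratory strain. Both groups were aerobic and glucose-fed at 7.5 g/L in a synthetic medium with urea, at a dilution rate of 0.1 per h and pH 6, with pluronic antifoam, 10 mg/L ergosterol and 0 mg/L Tween 80, so both media held added sterol. The series describes the 2 libraries of a group as biological replicates, and each species is 1 strain. Species also goes with the run code in the library titles, with the genome the reads were aligned to and with its annotation, so these cannot be told apart.

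Sugar is broken down by glycolysis to pyruvate, which can be fermented to ethanol or oxidised in mitochondria. S. cerevisiae ferments readily even with oxygen when glucose is plentiful, whereas K. marxianus is known for largely respiratory growth with oxygen, and under glucose limitation both respire. S. cerevisiae descends from an ancestor whose genome was duplicated, and it keeps many enzymes and ribosomal proteins as pairs of genes. K. marxianus branched off before that event, so its gene is often set here against 1 of several S. cerevisiae copies.

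The libraries held 9929583 and 10660870 counted read pairs in K. marxianus, against 11471332 and 12164471 in S. cerevisiae, and 74.8% and 75% of these fell on paired genes in K. marxianus, against 73.6% and 73.5% in S. cerevisiae. A level is a gene's count per kb of its own annotated length, scaled to 1000000 over the paired genes of the library. It is a share of the paired messenger RNA, so less transcript of a gene per cell and more transcript of other genes cannot be told apart. Oxygen-repressed genes were read as a check of the aerobic label of the S. cerevisiae cultures against the anaerobic ones. The label of the K. marxianus cultures was not checked in this way. ANB1, a hypoxic translation factor eIF5A gene, had levels of 1.92 and 0.46 in aerobic cultures, against 1935 and 1758 in anaerobic cultures with both supplements. The cell wall mannoprotein gene TIR1 had levels of 8.92 and 8.85 in aerobic cultures, against 4508 and 3239.9 in those anaerobic cultures. HEM13, a heme synthesis gene, had levels of 158 and 149 in aerobic cultures, against 1869.8 and 1529 in those anaerobic cultures, and COX5B and AAC3 were also lower in the aerobic ones. The desaturase gene OLE1 went the other way, at 3032 and 3786 in aerobic cultures, against 1738 and 1622 in those anaerobic cultures. Oxygen-limited S. cerevisiae cultures were less clearly set apart from aerobic ones. Their levels were 11.3 and 3.4 for ANB1, 13.2 and 9.8 for TIR1, and 26.2 and 57.5 for HEM13, the last below the aerobic levels. COX5B was at 248 and 344 in oxygen-limited cultures, against 29.3 and 36.7 in aerobic ones, and AAC3 at 6.4 and 6.24, against 1.6 and 2.36.

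Across the 3885 pairs the mean levels of the species correlated with Pearson's r of 0.733 on the log2(level + 1) scale and Spearman's rho of 0.716, a description across genes, which are not independent replicates. Replicate libraries had r of 0.9969 in K. marxianus and 0.9969 in S. cerevisiae. The SD of the log2 difference between replicates was 0.139 in K. marxianus and 0.138 in S. cerevisiae, while the SD of the log2 difference between species was 1.291. The species difference was therefore far wider than the replicate spread. Of the 100 most abundant paired genes of each species, 51 were in both sets.

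With edgeR's quasi-likelihood test and Benjamini-Hochberg adjustment, 3294 pairs (84.8%) passed an adjusted p of 0.05, 1488 higher (38.3%) and 1806 lower (46.5%) in K. marxianus. The excess of lower calls depended on the scaling, since TMM scaling gave 1661 higher and 1626 lower and RLE scaling 1648 and 1643. A fit without the pairs that have a close S. cerevisiae paralogue gave 1551 higher and 1454 lower. That fit was scaled anew over its own 3566 pairs, so its counts reflect a changed scaling as well as the removal. The median log2 difference of these 3566 pairs was -0.13 in the main scaling and 0.04 in that fit. A pair is called below when it passed that test and differed by at least 1 log2 unit, which is 2-fold. By this rule 1308 pairs were called (33.7%), 518 higher (13.3%) and 790 lower (20.3%). A stricter test against a difference of 1 log2 unit called 1066 pairs (27.4%), 414 higher (10.7%) and 652 lower (16.8%). The libraries of the species did not overlap for 3558 pairs (91.6%). The median log2 difference was -0.11, and 2576 pairs (66.3%) differed by less than 1 log2 unit. Differences of at least 3 log2 units were present in 47 pairs toward higher and 95 toward lower K. marxianus levels, and of at least 5 units in 4 and 19 pairs.

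**Figure D1:**
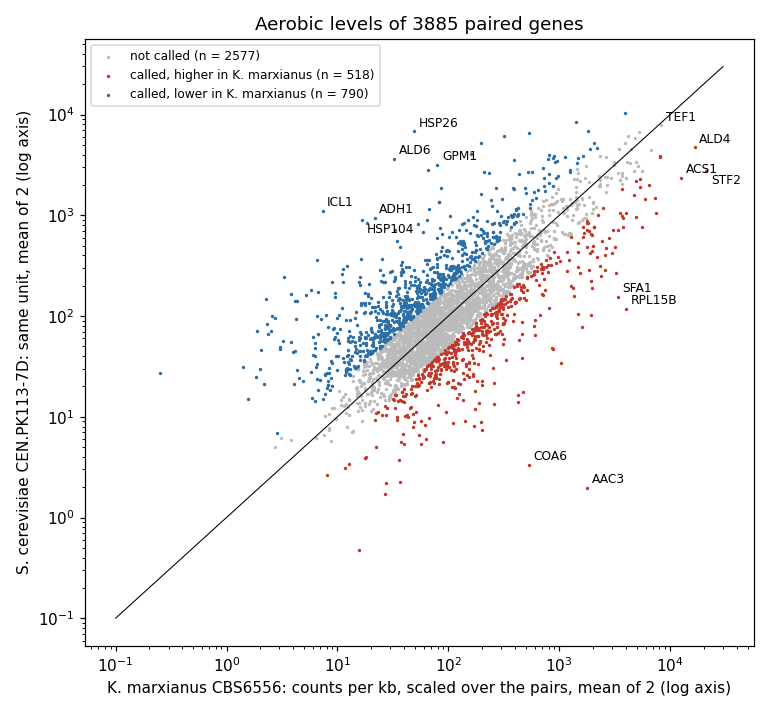
Mean aerobic level of each of the 3885 paired genes in K. marxianus (x axis) and in S. cerevisiae (y axis), both in counts per kb scaled over the pairs on log axes, with the line of equal level. Red points are the 518 pairs called higher in K. marxianus, blue points the 790 called lower, and the named points lie far from the line or at the top of the range, with AAC3 and ICL1 at its sides.

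The most abundant paired transcript of K. marxianus was STF2, which encodes a protein that stabilises the inhibited form of ATP synthase in S. cerevisiae. Its level was 21733 and 20551 in K. marxianus, against 2612 and 2924 in S. cerevisiae, a log2 difference of 2.93 (SE 0.10). With its close S. cerevisiae paralogue TMA10 added, which no K. marxianus gene is paired with, the S. cerevisiae level of STF2 was 21289.8 and 22673 and the log2 difference -0.06, so the higher level held against the paired copy alone. ALD4, the mitochondrial aldehyde dehydrogenase, followed at 17158 and 16108 in K. marxianus, against 4585 and 4867 in S. cerevisiae. ACS1, an acetyl-CoA synthetase, was at 12618 and 12571 in K. marxianus, against 2212 and 2514 in S. cerevisiae. The secreted invertase gene SUC2, which splits sucrose, had levels of 7651 and 7249 in K. marxianus, against 934 and 1151 in S. cerevisiae. All 4 transcripts were called higher in K. marxianus as paired, and no library of one species reached into the range of the other. Histone gene HTA2 was also among the 10 most abundant in K. marxianus (log2 difference 2.30, and 0.61 with HTA1 added to the S. cerevisiae level alone). So were ribosomal protein genes RPL38 (1.09), RPS12 (1.04, under 1 in 4 of the alternative settings), RPS20 (0.62) and RPS1B (1.70, and 0.60 with RPS1A added). TEF1, for translation elongation factor eEF1A, was in the top 10 of both species and did not pass the test (edgeR quasi-likelihood adjusted p = 0.423). Its levels were 8106 and 8530.1 in K. marxianus and 8003 and 7603 in S. cerevisiae. Only 7.5% of the 50-base stretches of TEF1 are unique in the S288C genome, and multi-mapping read pairs were left out. Its S. cerevisiae level, and with it the closeness of the species, is therefore uncertain.

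The most abundant paired transcript of S. cerevisiae was HYP2, the aerobic eIF5A gene, at 3770.3 and 3985 in K. marxianus, against 10542 and 10071 in S. cerevisiae. Aldolase FBA1, which cleaves the 6-carbon sugar of glycolysis, was the second at 1409.7 and 1439 in K. marxianus, against 8497 and 8431 in S. cerevisiae, a log2 difference of -2.57 (SE 0.10). Both were called lower in K. marxianus. The same held for the small heat shock protein gene HSP26, for ADH2, the glucose-repressed alcohol dehydrogenase, and for HSP12, a membrane-associated stress protein. HSP12 had levels of 348 and 281 in K. marxianus, against 5409 and 6799 in S. cerevisiae. RGI2 (log2 difference -1.92), SPG4 (-0.36) and ATP15 (-0.57), the epsilon subunit of ATP synthase, were other members of the S. cerevisiae top 10. So was HXT7, a high-affinity hexose transporter, at 4687 and 4895 in K. marxianus and 5657 and 5973 in S. cerevisiae. Only 4.9% of the 50-base stretches of HXT7 are unique in the S288C genome, so its S. cerevisiae level is likewise uncertain.

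The pair with the highest log2 difference was AAC3, an ADP/ATP carrier of the inner mitochondrial membrane that S. cerevisiae expresses without oxygen. It had levels of 1788 and 1788 in K. marxianus, against 1.6 and 2.36 in S. cerevisiae, a log2 difference of 9.80 (SE 0.14). The S. cerevisiae levels rest on counts of 13 and 20, and the K. marxianus levels on 11951 and 12956. The pair joins KM6556v0_H003430 on chromosome 8, bases 704174 to 705091 of the authors' CBS6556 assembly, and SCEN_B01990 on chromosome 2, bases 405605 to 406528 of their CEN.PK113-7D assembly. S. cerevisiae also holds PET9, at a mean level of 2183, and AAC1, at 190, neither of which is the paired gene. Summed over all genes annotated as ATP:ADP antiporters, the level was 1833 and 1835 in K. marxianus, against 2579 and 2312 in S. cerevisiae, so the sum was lower in K. marxianus (log2 difference -0.42). The size and sign of the AAC3 difference thus depended on which S. cerevisiae copy was paired.

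Several other pairs at the top of the ranking were also minor copies in S. cerevisiae. RPL15B, a large-subunit ribosomal protein, was at 4066 and 3999.9 in K. marxianus, against 119 and 116 in S. cerevisiae (log2 difference 5.10), and at 0.35 with both S. cerevisiae copies summed. GDH3, an NADP-dependent glutamate dehydrogenase, was at 1582 and 1594 in K. marxianus, against 69.3 and 85.4 in S. cerevisiae (4.36), while all glutamate dehydrogenase genes summed differed by 0.18. RNR3, the minor large subunit of ribonucleotide reductase, differed by 4.75, and by 0.26 with its paralogue RNR1 added. All genes annotated with this reductase activity, RNR2 and the S. cerevisiae RNR4 included, summed to 532 and 520 in K. marxianus, against 2132 and 2257 in S. cerevisiae (-2.06). SPR1, a sporulation-specific glucanase, differed by 4.92, and by 0.58 with its paralogue EXG1 added. High single-gene differences therefore stood beside small differences once the other S. cerevisiae copy was counted, and for RNR3 beside a lower sum of the whole activity.

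COA6, a cytochrome c oxidase assembly factor, had levels of 523 and 548 in K. marxianus, against 2.53 and 4.16 in S. cerevisiae (log2 difference 7.30, SE 0.18), the S. cerevisiae levels resting on counts of 7 and 12. SFA1, the glutathione-dependent formaldehyde dehydrogenase, was at 3328 and 3389.8 in K. marxianus, against 145 and 165 in S. cerevisiae. ERT1, a transcription factor of carbon source use, was at 490.3 and 444 in K. marxianus, against 18.1 and 16.8 in S. cerevisiae. These 3 genes were among the 12 highest differences. Others were the spore wall gene OSW2 (log2 difference 4.92), the porphyrin transporter gene PUG1 (4.68), the mitochondrial protein gene YBR238C (4.46) and the globin-like gene YNL234W (4.40).

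At the lower end stood ICL1, isocitrate lyase of the glyoxylate cycle, which lets cells build sugar from acetate. It had levels of 8.47 and 6.21 in K. marxianus, against 1104 and 1122 in S. cerevisiae (log2 difference -7.25, SE 0.12), with counts of 156 and 124 in K. marxianus and 16250 and 17207 in S. cerevisiae. The genes are KM6556v0_H001720 on chromosome 8, bases 343395 to 345925, and SCEN_E01610 on chromosome 5, bases 285728 to 287401, so the annotated length was 2531 bases in K. marxianus and 1674 in S. cerevisiae. HSP26 had levels of 48.1 and 50.3 in K. marxianus, against 6023 and 7628 in S. cerevisiae. HSP104, the protein disaggregase, was at 17.3 and 15.9 in K. marxianus, against 809 and 998 in S. cerevisiae, with annotated lengths of 6422 and 2727 bases. The hexose transporter gene HXT5 was at 18.2 and 19.1 in K. marxianus, against 726 and 955 in S. cerevisiae, and its annotated length was 3286 bases in K. marxianus and 1779 in S. cerevisiae. These pairs kept their call when the counts were not divided by length, while the length itself is part of the annotation and its part in the size of the difference was not tested further.

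The glycolytic enzyme phosphoglycerate mutase, GPM1, had levels of 82.0 and 77.4 in K. marxianus, against 3131 and 3244 in S. cerevisiae (log2 difference -5.32, SE 0.10). Flavohaemoglobin YHB1, which detoxifies nitric oxide, was at 63.6 and 68.2 in K. marxianus, against 3000.5 and 2687 in S. cerevisiae. HSP31, a stress-induced chaperone and glyoxalase, differed by -5.41, TMT1, a methyltransferase acting on trans-aconitate, by -6.01, and the mitochondrial protein gene AIM19 by -5.78. The remaining genes of the 12 lowest, ALD6, ALD5 and ADH1, belong to the enzyme families described next.

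Transcripts of glycolysis and ethanol formation were mostly lower in K. marxianus. Of 16 paired genes 11 were called lower (68.8%, against 20.3% of all pairs) and 2 higher, and their median log2 difference was -2.15, against -0.11 over all pairs. To account for duplicated genes, levels were also summed over all genes that the authors' tables annotate with an enzyme activity, paired or not. By these sums all 10 glycolytic steps were lower in K. marxianus, 9 of them by at least 1 log2 unit, with no overlap between libraries. The sum rule and the pairing rule gave opposite signs for 1 of these steps, glyceraldehyde-3-phosphate dehydrogenase.

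In the upper part of the pathway hexokinase, which phosphorylates glucose, summed to 1578 and 1577 in K. marxianus, against 3285 and 3604 in S. cerevisiae (log2 difference -1.13). Glucose-6-phosphate isomerase, the least different step, had 509 and 465 in K. marxianus, against 700.4 and 709 in S. cerevisiae (-0.53). Phosphofructokinase, the main control point, had 218 and 206 in K. marxianus, against 596 and 626 in S. cerevisiae (-1.53). Its subunit genes differed unequally, PFK1 by -2.37 and PFK2 by -0.92. In the lower part triose-phosphate isomerase had 561 and 572 in K. marxianus, against 2614 and 2755 in S. cerevisiae, and phosphoglycerate kinase had 697 and 726 in K. marxianus, against 2850.1 and 3081 in S. cerevisiae.

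Phosphoglycerate mutase showed the widest gap of the 10 steps, with 115 and 115 in K. marxianus, against 3286 and 3398 in S. cerevisiae (log2 difference -4.86). Enolase was at 749.7 and 742 in K. marxianus, against 2784 and 3134 in S. cerevisiae. Pyruvate kinase, the last step, was at 249 and 234 in K. marxianus, against 1407 and 1501 in S. cerevisiae (-2.59). Glyceraldehyde-3-phosphate dehydrogenase summed to 3633 and 3669 in K. marxianus, against 8644 and 8887 in S. cerevisiae (-1.26). The paired gene, TDH2, alone was called higher in K. marxianus at 1.90, because the major S. cerevisiae copy TDH3, with a mean level of 7384, has no partner by the pairing rule.

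Pyruvate decarboxylase, which commits pyruvate to ethanol or to cytosolic acetyl-CoA, summed to 201 and 189 in K. marxianus, against 1703 and 1728 in S. cerevisiae (log2 difference -3.13). The paired alcohol dehydrogenases diverged. ADH1, the main fermentative enzyme, had levels of 21.3 and 22.1 in K. marxianus, against 1011 and 883 in S. cerevisiae (log2 difference -5.45). ADH2, which oxidises ethanol, had 551 and 507 in K. marxianus, against 6436 and 6616 in S. cerevisiae (-3.63). Mitochondrial ADH3 was called higher, at 5849 and 5212 in K. marxianus, against 757 and 784 in S. cerevisiae (2.84). Each species thus had another member of the family at the top, and the summed activity was close, at 9787 and 9167 in K. marxianus, against 8524 and 8620.2 in S. cerevisiae (0.15). That sum includes SFA1, the formaldehyde dehydrogenase, at a mean level of 3359 in K. marxianus, against 155 in S. cerevisiae. It leaves out KM6556v0_D006730, an unpaired K. marxianus gene annotated only as a zinc-binding oxidoreductase, whose level was 17628 and 16991. Which K. marxianus ADH gene is the counterpart of which S. cerevisiae gene comes from the authors' table.

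**Figure D2:**
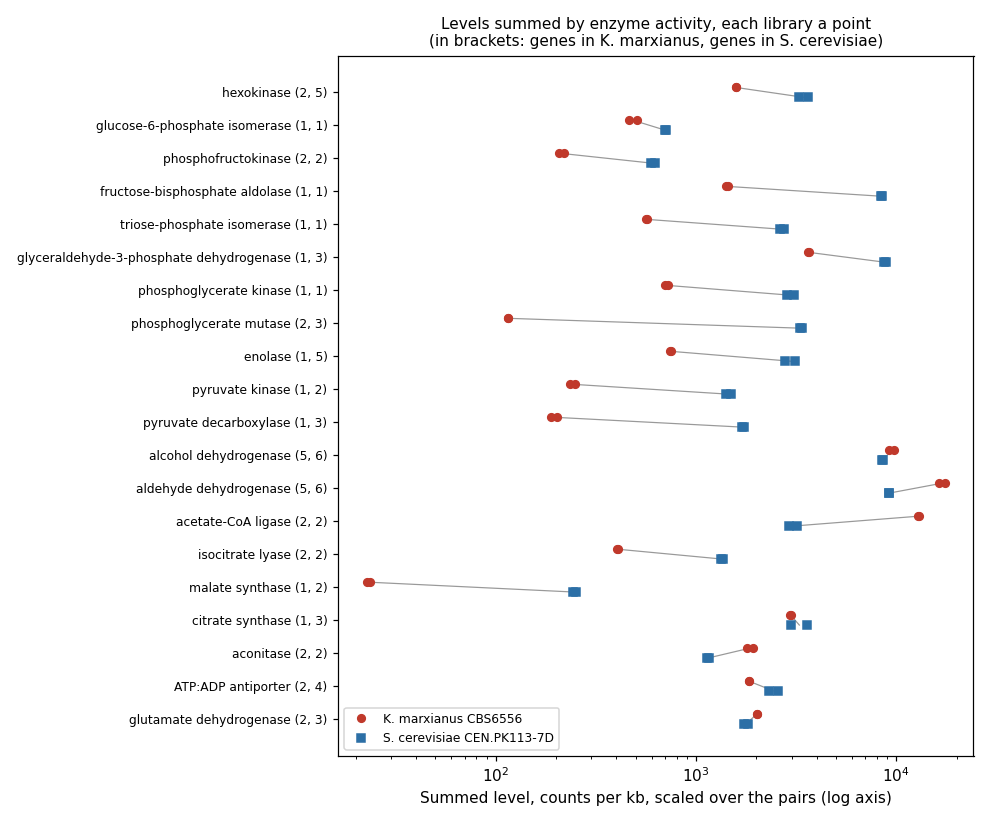
Aerobic levels summed over all genes annotated with an enzyme activity, in counts per kb scaled over the pairs on a log axis, with 1 point per library, red circles for K. marxianus and blue squares for S. cerevisiae, and the number of genes of each species in brackets. The 10 glycolytic steps and pyruvate decarboxylase lie to the left in K. marxianus, acetate-CoA ligase lies to the right, and citrate synthase, alcohol dehydrogenase and glutamate dehydrogenase nearly coincide.

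Genes that turn acetaldehyde into acetyl-CoA split into called higher and called lower members. Of 9 paired genes of aldehyde and acetate metabolism, 3 were called higher (33.3%, against 13.3% of all pairs) and 5 lower (55.6%, against 20.3%). The aldehyde dehydrogenase gene ALD4 was higher by 1.82 on the log2 scale and ALD3 by 1.26. ALD3 had a mean level of 92.5 in K. marxianus, against 38.6 in S. cerevisiae, which also holds the unpaired ALD2 at 50.5. Cytosolic ALD6, at 30.7 and 34.0 in K. marxianus, against 3744 and 3491 in S. cerevisiae, and ALD5, at 3.02 and 3.53 in K. marxianus, against 255 and 231 in S. cerevisiae, were lower. Summed aldehyde dehydrogenase was 17427 and 16358 in K. marxianus, against 9182 and 9243 in S. cerevisiae (log2 difference 0.88), most of it ALD4 in K. marxianus. Acetate-CoA ligase summed to 12919 and 12859.5 in K. marxianus, against 2900.0 and 3181 in S. cerevisiae (2.08), with ACS1 called higher and ACS2 called lower (-1.20). The acetate transporter gene ADY2 was called lower, at 402 and 378 in K. marxianus, against 3073 and 4053 in S. cerevisiae.

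Genes of the glyoxylate cycle and gluconeogenesis rebuild sugar from acetyl-CoA, and 4 of 9 were called lower (44.4%, against 20.3% of all pairs) and 1, aconitase ACO1, higher, with a median of -0.42. Malate synthase MLS1 was called lower (log2 difference -2.58), with 23.6 and 22.8 in K. marxianus, against 136 and 142 in S. cerevisiae, and so was PCK1, phosphoenolpyruvate carboxykinase (-2.24). FBP1, fructose-1,6-bisphosphatase, differed by -0.32, under the 2-fold mark. Summed isocitrate lyase activity was 409 and 401 in K. marxianus, against 1335 and 1371 in S. cerevisiae (-1.74), a smaller gap than that of ICL1 alone because the annotation adds ICL2, the mitochondrial 2-methylisocitrate lyase.

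The pyruvate dehydrogenase complex and tricarboxylic acid (TCA) cycle, which oxidise pyruvate in mitochondria, had a median log2 difference of -0.71 over 21 genes, of which 6 were called lower (28.6%, against 20.3% of all pairs) and 2 higher (9.52%, against 13.3%). SDH2, the iron-sulphur subunit of succinate dehydrogenase, was at 902 and 908 in K. marxianus, against 3819 and 3932 in S. cerevisiae (-2.10), while SDH1 and SDH3 differed by -0.73 and -0.84, under the 2-fold mark. LSC1, the alpha subunit of succinyl-CoA ligase, was at 70.0 and 63.8 in K. marxianus, against 1157 and 1127 in S. cerevisiae (-4.09), and its partner LSC2 differed by -0.96. Subunits of 1 enzyme were therefore not displaced alike. CIT3, a citrate synthase, was called higher (2.80), but the sum of all citrate synthase genes was 2958 and 2984 in K. marxianus, against 2987 and 3569 in S. cerevisiae (-0.14), since the S. cerevisiae genes CIT1 and CIT2 are unpaired. Aconitase summed to 1917 and 1799 in K. marxianus, against 1156 and 1139 in S. cerevisiae (0.70).

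In the respiratory chain most members stayed under the 2-fold mark, and the shares called lower were near the 20.3% of all pairs in its larger lists. Of 6 genes for NADH and lactate dehydrogenases 3 were called lower (50%), among them NDE1 (-1.50), the external NADH dehydrogenase. In the cytochrome bc1 complex with cytochrome c 3 of 10 were called lower (30%) and 1 higher (median -0.69), and in cytochrome c oxidase 2 of 8 were lower (25%, median -0.62). CYC1, cytochrome c, was at 2242 and 2352 in K. marxianus and 2552 and 2389.7 in S. cerevisiae. For ATP synthase 3 of 16 were called lower (18.8%), and 2 were higher, STF2 and the inhibitor gene INH1 (1.03), with a median of -0.53. This list, which includes the abundant STF2, held 5.00% ± 0.031 of the paired level in K. marxianus, against 3.92% ± 0.063 in S. cerevisiae (SD, n = 2 each). Of the 16 genes 11 had a negative log2 difference. STF2 had a mean level of 21142 in K. marxianus, against 2768 in S. cerevisiae, and without it the K. marxianus share was the lower one. Catalytic subunit genes ATP1 and ATP2 differed by -0.85 and -1.16. Cytochrome c oxidase assembly genes had 6 of 21 called in each direction (28.6%, against 13.3% higher and 20.3% lower of all pairs). COA6 stood at one end and COX23 (-3.19) at the other.

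Peroxisomal beta-oxidation, which shortens fatty acids to acetyl-CoA, was the group with the largest share of called-higher genes among lists of at least 10 pairs, 8 of 13 (61.5%, against 13.3% of all pairs). Its median log2 difference was 1.54, and its genes held 1.87% ± 0.071 of the paired level in K. marxianus, against 0.581% ± 0.042 in S. cerevisiae (SD, n = 2 each). POX1, the acyl-CoA oxidase, was at 2849 and 2744 in K. marxianus, against 534 and 642 in S. cerevisiae (log2 difference 2.25, SE 0.10). FOX2, the next enzyme of the spiral, was at 2749.8 and 2561 in K. marxianus, against 433 and 503 in S. cerevisiae (2.50). POT1, the thiolase, was at 1889 and 1791 in K. marxianus, against 263 and 312 in S. cerevisiae (2.68). All 3 core steps were called higher, with no overlap between species.

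The acyl-CoA synthetase gene FAA2, at 3268 and 3105 in K. marxianus, against 455 and 512 in S. cerevisiae, and the peroxisomal ATP carrier gene ANT1, at 1386 and 1326 in K. marxianus, against 159.8 and 159 in S. cerevisiae, were higher as well. So were the auxiliary genes SPS19 (2.67), ECI1 (1.40) and TES1 (1.55). The peroxisomal malate dehydrogenase MDH3, which reoxidises NADH, was the only member called lower, at 311 and 310.0 in K. marxianus, against 854 and 866 in S. cerevisiae. Peroxisomal catalase CTA1 overlapped between species, at 1720.1 and 1518 in K. marxianus and 1369.7 and 1529 in S. cerevisiae (edgeR quasi-likelihood adjusted p = 0.103). Of 16 genes for building peroxisomes none was called higher and 4 were called lower (25%, against 20.3% of all pairs).

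The carnitine shuttle, which carries acetyl units into mitochondria, had 3 of 5 genes called higher (60%, against 13.3% of all pairs) and none lower (median 1.55). YAT1, an outer mitochondrial carnitine acetyltransferase, was at 628 and 567 in K. marxianus, against 80.5 and 78.0 in S. cerevisiae (2.92). The carnitine transporter gene AGP2 differed by 1.68 and the inner membrane carrier gene CRC1 by 1.55. CAT2 and YAT2, other acetyltransferases, differed by 0.57 and -0.68, under the 2-fold mark. ADR1, the transcription factor that drives peroxisomal and ethanol-use genes in S. cerevisiae, was called higher, at 343 and 307 in K. marxianus, against 81.6 and 102 in S. cerevisiae.

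Ergosterol, the sterol of yeast membranes, is made by a long pathway of which several steps need oxygen. Of 23 paired genes 16 were called lower in K. marxianus (69.6%, against 20.3% of all pairs) and none higher, and the median log2 difference was -1.42. The pathway held 0.533% ± 0.001 of the paired level in K. marxianus, against 1.62% ± 0.124 in S. cerevisiae (SD, n = 2 each). In the mevalonate part HMG1, the HMG-CoA reductase, was at 38.2 and 40.2 in K. marxianus, against 274 and 275 in S. cerevisiae (-2.81), with annotated lengths of 4123 and 3165 bases. MVD1 (-2.12), ERG13 (-1.93), ERG10 (-1.52) and ERG20 (-1.50) were also called lower. ERG9, which makes squalene, differed by -0.60 and stayed under the 2-fold mark.

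At the oxygen-requiring steps ERG1, squalene epoxidase, was at 126 and 141 in K. marxianus, against 885 and 759 in S. cerevisiae (log2 difference -2.62, SE 0.09). ERG11, the lanosterol demethylase targeted by azole drugs, was at 274 and 262 in K. marxianus, against 2003 and 1728 in S. cerevisiae (-2.80). ERG25, which starts removal of the methyl groups at carbon 4, was at 439 and 425 in K. marxianus, against 2714 and 2389.9 in S. cerevisiae (-2.56), with annotated lengths of 1228 and 930 bases. ERG3, the desaturase, was at 503 and 486 in K. marxianus, against 2072 and 1672 in S. cerevisiae (-1.92), and ERG5, the other late desaturase, differed by -1.07. Each of these 5 was called lower and none overlapped between species. The pathway's lowest log2 difference was that of ERG6, the sterol methyltransferase specific to fungal-type sterols, at 84.4 and 78.7 in K. marxianus, against 1428 and 1295 in S. cerevisiae (-4.06, SE 0.09). The electron donors NCP1 and CYB5 differed by -0.17 and 0.03.

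**Figure D3:**
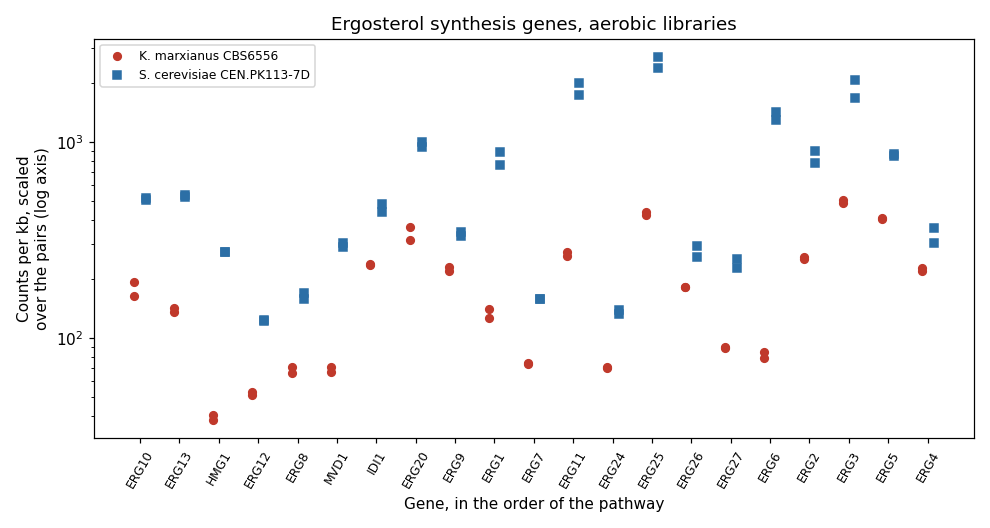
Aerobic levels of 21 paired ergosterol synthesis genes in the order of the pathway (x axis; the electron donor genes NCP1 and CYB5 are left out), in counts per kb scaled over the pairs on a log y axis, with 1 point per library, red circles for K. marxianus and blue squares for S. cerevisiae. In each gene both K. marxianus libraries lie below both S. cerevisiae libraries, with the widest gap at ERG6.

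Around the sterol pathway UPC2, the sterol-sensing activator, was called higher (1.07), with levels of 25.8 and 28.1 in K. marxianus, against 13.2 and 12.4 in S. cerevisiae. The sterol acyltransferase gene ARE2 (-1.32) and the triacylglycerol synthesis gene DGA1 (-1.30) were called lower, while LRO1, the other acyltransferase that makes triacylglycerol, was called higher at 155 and 151 in K. marxianus, against 24.6 and 24.7 in S. cerevisiae. The oxygen-dependent fatty acid desaturase OLE1 was called lower, at 919 and 911 in K. marxianus, against 3032 and 3786 in S. cerevisiae (-1.90). Fatty acid synthase genes differed unequally, with FAS1 at -1.44 and FAS2 at -0.16 on the log2 scale. In fatty acid synthesis as a whole 4 of 15 were called lower (26.7%, against 20.3% of all pairs) and 1 higher. In phospholipid and inositol synthesis 5 of 17 were called lower (29.4%) and 1 higher, with INO1, which makes inositol phosphate, at -2.23. Sphingolipid genes had 1 of 11 called, SUR2 (1.11). HEM1, the first enzyme of heme synthesis, was called lower (-2.87), and 1 other heme gene of the 9, HEM15, was called higher.

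Cytosolic ribosomal protein genes were higher in K. marxianus when compared copy by copy. Of 55 pairs 30 were called higher (54.5%, against 13.3% of all pairs) and 2 lower, with a median log2 difference of 1.09. They held 16.2% ± 0.475 of the paired level in K. marxianus, against 8.05% ± 0.646 in S. cerevisiae (SD, n = 2 each). Many of these genes are duplicated in S. cerevisiae, so the second copy was added for the 28 pairs where it has a single entry in the table and is not itself paired. Over these 28 pairs the median was 1.40 copy by copy and 0.38 with the copies summed, and 4 were then at least 1 log2 unit higher and 2 at least 1 lower. For 7 other duplicated genes the second copy could not be added, and 6 of these were at least 1 log2 unit higher, such as RPL7B (3.19), so their values remain against 1 copy. Over all 55 pairs the share was 15.9% and 16.5% in the K. marxianus libraries, against 12.3% and 10.95% in the S. cerevisiae libraries with these copies added. The ratio of the summed levels was 2.01 copy by copy and 1.39 with the copies added.

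Among the 18 pairs whose S. cerevisiae gene has no close paralogue, the median was 0.61. RPS13, a small-subunit protein, was at 5074 and 4799.9 in K. marxianus, against 1015 and 911 in S. cerevisiae (2.36). RPL5, which carries the 5S ribosomal RNA, differed by 1.93 and RPL32 by 1.49. The 2 pairs called lower were RPS29B (-3.48) and RPP2A (-2.24). The annotated K. marxianus genes were much longer, at 1190 against 171 bases for RPS29B and 1117 against 321 bases for RPP2A. Of the 55 genes 27 have introns in S. cerevisiae, and these introns are in the annotated length.

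**Figure D4:**
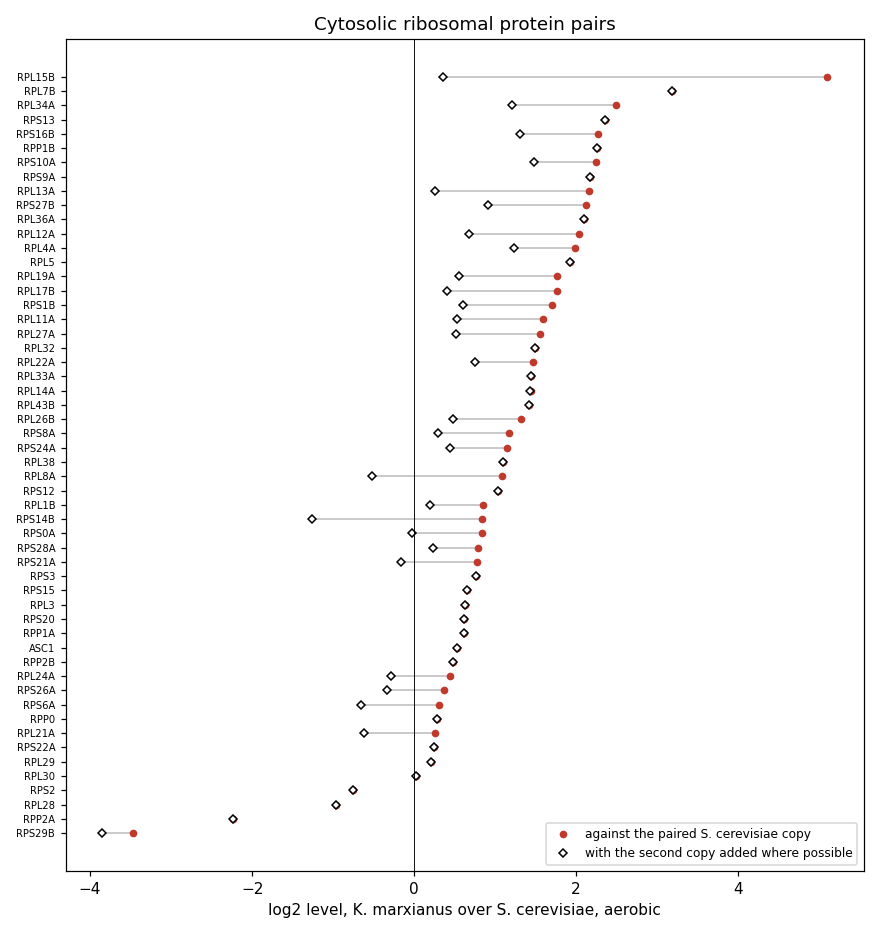
Log2 difference in level, K. marxianus over S. cerevisiae, of cytosolic ribosomal protein pairs, 1 row per pair (1 of the 55 pairs is not drawn), against the paired S. cerevisiae copy (red circles) and against that copy with the second one added where this was possible (open diamonds), joined by a line. Adding the second copy moves 28 pairs to the left, and their median is 0.38 with copies summed and 1.40 copy by copy.

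No other list of the translation machinery had more than 2 genes called higher. Mitochondrial ribosomal protein genes had 2 of 71 called higher (2.82%, against 13.3% of all pairs) and 4 lower (5.63%, against 20.3%), with a median of -0.03. Ribosome biogenesis factors, which assemble new ribosomes in the nucleolus, had 2 of 97 called higher and 25 lower (25.8%, against 20.3% of all pairs), with a median of -0.35. FAF1 (-3.85) and NOP15 (-2.54) were the lowest of them. Translation factors had 2 of 25 called in each direction (8%) and aminoacyl-tRNA synthetases 1 of 19 in each (5.26%), below the shares of all pairs. Subunits of RNA polymerases I and III had 4 of 20 called lower (20%, near the 20.3% of all pairs) and none higher. RPC40 (-3.01) and RPA12 (-2.89) were the lowest of them.

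The proteasome, which degrades ubiquitin-tagged proteins, had 12 of 33 genes called lower (36.4%) and none higher, and a median of -0.88. Levels summed to 1.00% ± 0.006 of the paired level in K. marxianus, against 1.83% ± 0.043 in S. cerevisiae (SD, n = 2 each). RPT1, an ATPase of the base, stood apart from the rest at 35.1 and 33.2 in K. marxianus, against 542 and 575 in S. cerevisiae (-4.03), with annotated lengths of 1085 and 1404 bases. Why single subunits such as RPT1 and LSC1 lie far from their partners was not tested.

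Heat shock proteins and chaperones had 17 of 34 called lower (50%) and 1 higher, with a median of -1.08. Beside HSP26, HSP104 and HSP12, the mitochondrial disaggregase HSP78 was at 37.3 and 35.5 in K. marxianus, against 449 and 519 in S. cerevisiae (-3.73). HSP82, an Hsp90, was at 315 and 319.5 in K. marxianus, against 789 and 964 in S. cerevisiae (-1.47), and KAR2, the chaperone of the endoplasmic reticulum, differed by -2.0. Mitochondrial HSP60 and HSP10 differed by -0.34 and -0.04, under the 2-fold mark. HSF1, the transcription factor that activates heat shock genes, was the member called higher, at 197 and 180.1 in K. marxianus, against 43.5 and 50.8 in S. cerevisiae (2.0).

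Genes of hexose transport, galactose use and glucose signalling had 10 of 18 called higher (55.6%) and 2 lower, with a median of 1.18. GAL1, galactokinase, was at 115 and 106 in K. marxianus, against 8.53 and 8.74 in S. cerevisiae (3.68). GAL2, the galactose transporter, was at 189.9 and 192 in K. marxianus, against 12.9 and 14.7 in S. cerevisiae (3.79). GAL7 (2.65) and GAL10 (2.88), the later enzymes of the pathway, were also called higher, while the regulators GAL4 and GAL80 differed by -0.68 and -0.70. Summed over 7 K. marxianus and 15 S. cerevisiae genes annotated as glucose transporters, the level was 5062 and 5261 in K. marxianus, against 10900.1 and 11509 in S. cerevisiae (-1.12). The K. marxianus sum leaves out unpaired genes annotated with transmembrane transport and no named substrate. Among them were KM6556v0_C002760, at 8944 and 8588, and KM6556v0_G001250, at 5131 and 4774, and whether they carry sugar was not tested. The regulator STD1 (3.19) was called higher, and HAP3, a subunit of the activator of respiratory genes, was called lower at 9.71 and 8.17 in K. marxianus, against 218 and 212 in S. cerevisiae, with annotated lengths of 651 and 435 bases.

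Cell wall and glycosylphosphatidylinositol-anchored protein genes had 8 of 17 called higher (47.1%) and 1 lower, with a median of 0.89. SIM1, a wall protein of the SUN family, was at 1914 and 1915 in K. marxianus, against 111 and 95.2 in S. cerevisiae (4.21), and GAS3, of the glucan-remodelling family, differed by 2.74 and GAS5 by -2.23. Metal transport genes had 9 of 24 called higher (37.5%, against 13.3% of all pairs) and 5 lower (20.8%, against 20.3%). The high-affinity iron uptake genes FET3 (1.91) and FTR1 (1.39) and the zinc-responsive activator ZAP1 (2.35) were higher, and the copper transporter genes CTR1 (-1.89) and CTR2 (-2.55) were lower.

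In oxidative stress defence 2 of 21 were called higher and 4 lower. CCP1, which reduces hydrogen peroxide with electrons from cytochrome c, was at 1931 and 1900.5 in K. marxianus, against 216 and 231 in S. cerevisiae (3.10), and SOD2, the mitochondrial superoxide dismutase, differed by -1.34. Nitrogen assimilation genes had 3 of 9 called higher (33.3%) and 2 lower (22.2%). Glutamate synthase GLT1 (1.59) and the amino acid permease GAP1 (2.03) were higher, and the ammonium permease MEP2 (-1.74) was lower. Amino acid synthesis had 13 of 76 called higher (17.1%) and 11 lower (14.5%), shares near those of all pairs, with ILV6 at 2.69 and TRP1 at -3.68 as its ends.

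**Figure D5:**
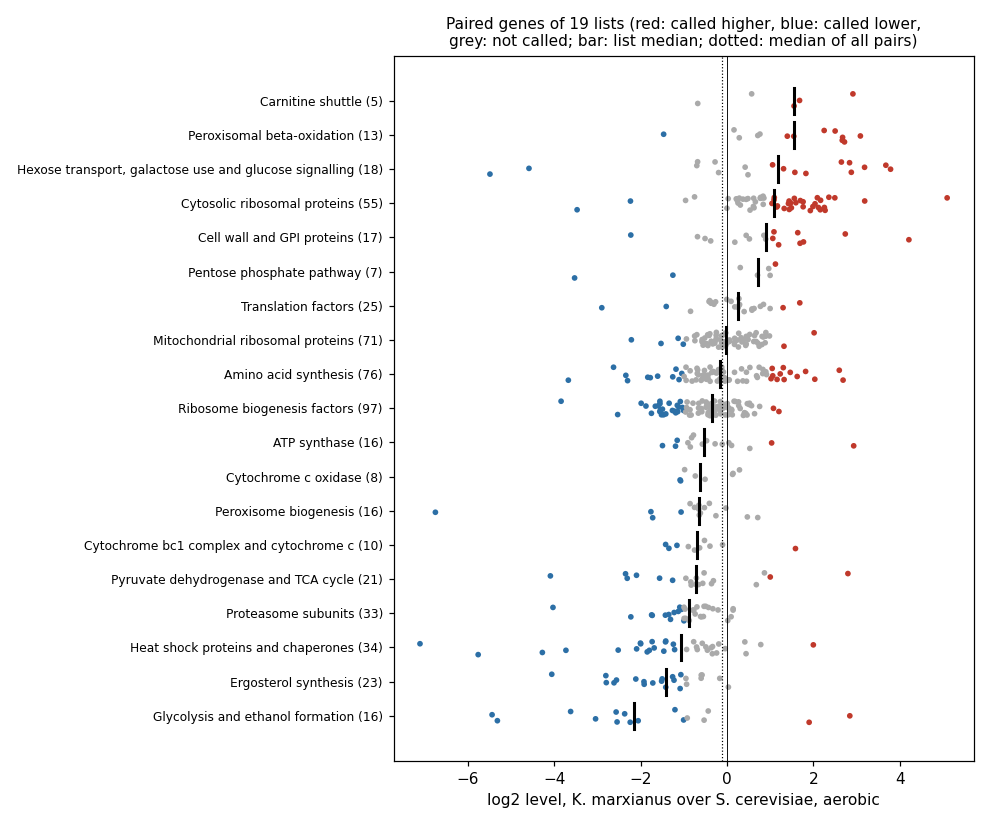
Log2 differences in level, K. marxianus over S. cerevisiae, of the members of 19 gene lists, 1 point per pair, red where called higher, blue where called lower and grey where not called, with a bar at each list's median and a dotted line at the median of all pairs. Glycolysis, ergosterol synthesis, heat shock proteins and the proteasome have medians of -2.15, -1.42, -1.08 and -0.88, and beta-oxidation and the carnitine shuttle of 1.54 and 1.55.

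The same pairs could be read in the other culture conditions, without a further test and with levels scaled in the same way. Those cultures differ in feed and supplements as well as oxygen. Of the 518 pairs called higher in aerobic K. marxianus, 371 (71.6%) were at least 1 log2 unit higher in oxygen-limited cultures too, out of 1354 such pairs (27.4% of them), 269 (51.9%) in anaerobic cultures with Tween 80 and ergosterol, out of 585 (46.0%), and 164 (31.7%) in anaerobic cultures with Tween 80 alone, out of 395 (41.5%). Of the 790 pairs called lower, 296 (37.5%) were at least 1 unit lower in oxygen-limited cultures, out of 541 (54.7%), 391 (49.5%) in anaerobic cultures with both supplements, out of 676 (57.8%), and 559 (70.8%) with Tween 80 alone, out of 1617 (34.6%). The all-pairs median itself was -0.11 aerobically, 0.51 under oxygen limitation, 0.01 in anaerobic cultures with both supplements and -0.73 with Tween 80 alone.

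Several groups had another sign when oxygen was limiting. Median log2 differences of glycolysis and ethanol genes were -2.15 in aerobic, 1.70 in oxygen-limited, -0.42 in anaerobic cultures with both supplements and -1.43 in those with Tween 80 alone. For ergosterol synthesis the 4 medians in the same order were -1.41, 0.95, 1.04 and -1.31, and for beta-oxidation they were 1.54, -0.42, -1.18 and -1.87. GPM1 shows the range within a species. Its mean level in K. marxianus was 79.7 in aerobic, 7202 in oxygen-limited and 7521 in anaerobic cultures with both supplements, and in S. cerevisiae 3188, 4061 and 9837. ADH3 went the other way in K. marxianus, with 5531 in aerobic and 66.7 in oxygen-limited cultures, against 771 and 662 in S. cerevisiae. The low aerobic GPM1 and high aerobic ADH3 values thus belonged to genes with wide ranges in K. marxianus. The aerobic cultures had less glucose in the feed than the others, so oxygen and glucose cannot be told apart here.

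Duplicated genes and annotated lengths moved with the differences across all pairs. Of 319 pairs whose S. cerevisiae gene has a close paralogue, defined by at least 50% protein identity over 80% of the length, 93 were called higher (29.2%) and 64 lower (20.1%), with a median of 0.26, against -0.13 for the other pairs. With the paralogue's level added, in the 291 pairs where it was in the table, the median was -0.76. Of 83 pairs called higher among these, 13 remained at least 1 log2 unit higher and 32 turned lower. In the 215 pairs whose paralogue is not itself paired, the median was 0.37 copy by copy and -0.59 with the paralogue added. Across pairs, the log2 ratio of annotated lengths correlated with the log2 difference in level with Pearson's r of -0.15, a description only, since the length is also in the denominator of the level. In the 44 pairs whose annotated K. marxianus gene was at least 2 times longer than its partner, the median log2 difference was -0.86.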

How the data were processed

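Messenger RNA was sequenced from 2 aerobic libraries of each species. The authors' deposited values are raw counts per gene. Per the file headers they were made with featureCounts 1.6.0 from each species' own gene annotation, for fragments with both mates aligned and not chimeric. No strand option was set, although the kit is stranded, and multi-mapping or multiply overlapping pairs were left out, so near-identical copies and antisense genes are uncertain. Alignment used Bowtie 1.2.1.1, per the submitters' processing notes.

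Pairs came from the S288C entries of the authors' deposited comparison tables, whose log2 fold changes, scores and p-values were not used. Counts were fitted with edgeR 4.0.16 in R 4.3.3, by quasi-likelihood, with an offset of gene length and of the library's summed counts per kb over the pairs. The low-count filter kept all pairs. With 2 libraries a group, 2 residual degrees of freedom remained, an exact permutation test cannot go below 0.333, and p-values cover the spread between these libraries. SE is the absolute log2 difference divided by the square root of F. The procedure was tested on simulated data. DESeq2 1.42.0 was an alternative. Close paralogues were found with BLAST+ 2.17.0+ on S288C proteins.

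Named genes are the 12 highest and 12 lowest called differences, with a mean level of at least 100 in 1 species, at least 10 counts in each library of the higher species and no overlap, the 10 most abundant of each species, and members at named steps of lists. Pairs and lists were chosen with earlier results of these data known, and the sums by enzyme activity were chosen after seeing the data.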

Additional observations from a re-analysis of the deposited data

Results flagged for a closer look

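Signals were present outside the compared pairs. In each species 5 unpaired genes were among its 10 most abundant genes, paired or not, on the same scale of counts per kb. In K. marxianus these were KM6556v0_B004810 with a mean level of 24481.1, KM6556v0_D006730 with 17309.8, KM6556v0_D002000 with 13525.8, KM6556v0_C002750 with 9933.3 and KM6556v0_C002760 with 8765.8, over 2 libraries each. KM6556v0_D006730 is annotated with zinc binding and oxidoreductase activity and KM6556v0_C002760 with transmembrane transport, and the other 3 carry no annotation in the deposited tables.

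In S. cerevisiae they were TMA10 (SCEN_L03870), a ribosome-associated protein and the close paralogue of STF2, with a mean level of 19213.3, SPO24 (SCEN_P03370), a small sporulation protein, with 10172.3, SCEN_D03740 with 7568.0, TDH3 (SCEN_G04680), the major glyceraldehyde-3-phosphate dehydrogenase, with 7383.9, and CCW12 (SCEN_L01730), a cell wall mannoprotein, with 7006.2.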

How the results depend on the processing

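The counts of 3294, 1308 and 1066 pairs (adjusted p alone, with at least 1 log2 unit, and against a threshold of 1 log2 unit) moved by more than 1.5 times in 1 setting, restriction to the 2551 pairs whose lengths differ by at most 10%, which tests fewer genes and gave 2159, 817 and 654. Without 1 library each they ranged over 3066 to 3240, 1306 to 1334 and 998 to 1046. DESeq2 gave 3160, 1308 and 892. TMM scaling moved the median log2 difference of all pairs to 0.005, against -0.11, and the share of higher calls among those of at least 1 log2 unit to 46.7%, against 39.6%. For the 42 genes named as extremes or as most abundant, 590 of 594 values kept direction and side of the threshold. The other 4 were all RPS12, at 0.875 to 0.980. Genes named only as members of lists, some of them close to the 2-fold mark, were not checked in this way. The ribosomal protein ratio of 2.014 was 1.393 with A and B copies summed. It was 2.166 with coding length, a setting that gives both genes of a pair the S288C coding length where the S288C gene has an intron. With paired genes alone, a setting chosen after seeing the data like coding length and the setting without paralogue pairs, 3 enzyme sums reversed, to 1.901 for glyceraldehyde-3-phosphate dehydrogenase, 2.799 for citrate synthase and 4.669 for the ATP:ADP antiporter, because fewer S. cerevisiae genes were summed. Among 46 lists none of the 19 with a median of at least 0.5 in size changed sign. In the other lists, with medians closer to equal levels, 25 of the 686 list medians under alternative settings changed sign. No paired analysis was possible because the species share no replicate numbers in the titles. Every aerobic library held at least 9929583 counted pairs, so counting error bears mainly on genes with low counts.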

Other observations

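Among lists not described above, actin, tubulin and septin genes had 5 of 13 called higher (38.5%) and 2 lower (15.4%) in K. marxianus. The shares of all pairs were 13.3% and 20.3%. The median log2 difference of this list was 0.28. The septins CDC3 (1.42), CDC10 (1.18) and CDC12 (1.34), which form the ring at the bud neck, were called higher, while CDC11 differed by 0.24. The pentose phosphate pathway, which makes NADPH, had 1 of 7 called higher (14.3%, near that of all pairs) and 2 lower (28.6%). SOL3, the lactonase, was at -3.53 and GND2, a phosphogluconate dehydrogenase, at 1.12. Trehalose and glycogen genes had 3 of 13 called higher (23.1%) and 4 lower (30.8%). The lower ones were PGM1 (-1.71), a phosphoglucomutase, and the trehalose synthesis genes TPS1 (-1.25), TPS2 (-1.64) and TPS3 (-1.32), and the higher ones were GAC1 (1.05), a regulator of glycogen storage, GSY2 (1.25), a glycogen synthase, and GPH1 (1.89), a glycogen phosphorylase.

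DNA replication and repair genes had 3 of 39 called higher (7.69%) and 8 lower (20.5%, near the 20.3% of all pairs). Their median was 0.08, with ORC6, of the origin recognition complex, at -3.48. The vacuolar ATPase, which acidifies the vacuole, had 1 of 12 called, VMA5 (-2.29). Autophagy genes had 2 of 17 called higher (11.8%) and 3 lower (17.6%), shares near those of all pairs.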
